A study of Mus musculus with 8 samples.

Results

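Translation initiation factors are the proteins that bring the small ribosomal subunit, the initiator tRNA and a capped mRNA together and set the ribosome on the start codon. Their transcripts were followed in alphaTC6 cells, a mouse line of glucagon-producing pancreatic alpha cells, after knockdown of Klf4. The members are all rows of the deposited count table whose symbol begins with Eif1 to Eif6, without the Eif2ak kinases and without symbols holding -ps (pseudogenes), at a mean of at least 1 CPM (counts scaled to the size of the library) over the 8 libraries. Of 66 symbols that begin this way among 55536 genes, 52 were left by name and 48 by level. The members nearest above the limit were Eif4e3 at 11.4 CPM and Eif3j2 at 12.3 CPM, and the nearest below it was Eif4ebp3 at 0.401 CPM. The other 3 below it were Eif4e1b at 0.0168 CPM, Eif2c5 at 0.0044 CPM and Eif2s3y, the Y-linked copy of Eif2s3x, with 0 counts in all libraries. Eif2c5 carries an older name of the Argonaute family and is annotated as a long noncoding RNA.

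The study asked which genes Klf4, a zinc finger transcription factor, regulates in alpha cells. All cells were labelled wild type and were reverse transfected for 48 h with RNAiMax Lipofectamine, carrying a pool of siRNAs against Klf4 in 4 libraries and a scramble siRNA in the 4 control libraries. The labels give 2 batches: scramble replicates 1 and 2 with Klf4 siRNA replicates 1, 2 and 4 in batch 1, and scramble replicates 3 and 4 with Klf4 siRNA replicate 3 in batch 2. All libraries come from 1 cell line and none from cells without siRNA, and the extraction protocol speaks of islets although each library is labelled as the line.

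Initiation runs in steps, and the factors are named by step. The eIF4F complex binds the cap and unwinds the leader, eIF2 carries the initiator tRNA and is recharged with GTP by eIF2B, eIF3 holds the small subunit and the mRNA together, and eIF1, eIF1A, eIF5 and eIF5B act while the start codon is found and the large subunit joins. The 4E-BPs hold back the cap-binding protein under the control of mTORC1, and phosphorylation of eIF2 by stress kinases holds back eIF2B. In endocrine cells, which make large amounts of secreted peptide, the eIF2 branch is known for its part in the response to stress of the endoplasmic reticulum.

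Totals ran from 45954151 to 64185987 counts per library, and the 48 members together took 1.08% to 1.14% of them. Klf4 itself had 39.2, 35.1, 46.3 and 46.8 CPM in scramble replicates 1 to 4 and 12.5, 11.5, 19.8 and 18.8 CPM in Klf4 siRNA replicates 1 to 4, so that no Klf4 siRNA library reached a control (log2 fold change -1.33 ± 0.17 SE, edgeR adjusted p = 0.0083, or 0.052 without scramble replicate 1). Of the alpha cell markers, Gcg, Pcsk2, Slc7a2, Ttr, Irx2 and Irx1 were at 183.2 CPM or more in all libraries, while Gc was at or near 0. The 9 alpha markers of the list summed to 5891 to 5939 CPM in scramble and 5628 to 5868 CPM in Klf4 siRNA libraries of batch 1, and to 13861 to 13917 CPM and 12576 CPM in those of batch 2, so that they moved with batch and, less, with treatment. Gcg had most of the batch difference. The beta cell markers Ins1, Ins2 and Ucn3 were at 0 counts and the summed markers of delta, PP and epsilon cells were 0.149 to 0.452 CPM. Of the beta cell list G6pc2 was at 83.5 to 103.1 CPM in batch 1 and 116.9 to 143.0 CPM in batch 2. Mafa of that list did not rise, at 2.70 to 3.76 CPM in batch 1 and 2.82 to 3.23 CPM in batch 2. Of the exocrine and duct list Sox9 was at 1.06 to 1.53 CPM in batch 1 and 3.74 to 4.63 CPM in batch 2. Cela1, the most abundant of that list, did not rise, at 5.90 to 7.30 CPM and 5.75 to 6.39 CPM. Among endothelial, blood and stromal markers Col1a2 was at 11.8 to 21.7 CPM. The part of these markers in the treatment and batch results of the initiation factors was not tested. In bulk RNA such as this, fewer cells of a type and less RNA per cell cannot be told apart.

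Promoters of members that changed are shown first, with the word CACCC marked, since boxes with this core are known binding sites of Klf4. RefSeq windows of 300 bases (250 before and 50 after the start site, GRCm38.p6) were found for 38 of the 48 members, 50 windows in all. The word CACCC, read on both strands (GGGTG on the other), was in 60.0% of these windows and in 57.5% of all 32851 windows of the table. The longer word GGGTGTGG, read on both strands and holding CACCC on the opposite one, was in 4.0% against 3.56%. Capitals mark CACCC or GGGTG. Eif2b5 is shown because its window holds the word 4 times, Eif2s3x because it was the member that fell, Eif4g1 because it was the most abundant that rose, and Eif2b4, with the largest rise, because its window holds none.
Eif2b5 (chr16:20498567-20498866, plus strand): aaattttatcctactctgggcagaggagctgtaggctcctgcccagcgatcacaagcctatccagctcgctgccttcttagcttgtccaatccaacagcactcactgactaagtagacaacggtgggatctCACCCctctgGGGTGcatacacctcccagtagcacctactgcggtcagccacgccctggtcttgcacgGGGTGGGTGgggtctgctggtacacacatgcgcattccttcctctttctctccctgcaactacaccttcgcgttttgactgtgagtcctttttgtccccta
Eif2s3x (chrX:94212602-94212901, minus strand): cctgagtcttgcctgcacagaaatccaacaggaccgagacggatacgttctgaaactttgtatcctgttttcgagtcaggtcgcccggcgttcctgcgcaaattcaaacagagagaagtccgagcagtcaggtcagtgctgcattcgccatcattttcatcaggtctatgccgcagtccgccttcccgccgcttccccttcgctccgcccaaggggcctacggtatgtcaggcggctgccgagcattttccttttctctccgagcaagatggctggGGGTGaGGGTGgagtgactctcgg
Eif4g1 (chr16:20672477-20672776, plus strand): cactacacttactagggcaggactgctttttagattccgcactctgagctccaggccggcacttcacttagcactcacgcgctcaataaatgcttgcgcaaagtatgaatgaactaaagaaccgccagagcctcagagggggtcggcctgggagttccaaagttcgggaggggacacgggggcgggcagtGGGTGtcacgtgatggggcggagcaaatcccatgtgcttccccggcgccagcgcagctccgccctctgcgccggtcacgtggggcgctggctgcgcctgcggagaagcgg
Eif2b4 (chr5:31193090-31193389, minus strand): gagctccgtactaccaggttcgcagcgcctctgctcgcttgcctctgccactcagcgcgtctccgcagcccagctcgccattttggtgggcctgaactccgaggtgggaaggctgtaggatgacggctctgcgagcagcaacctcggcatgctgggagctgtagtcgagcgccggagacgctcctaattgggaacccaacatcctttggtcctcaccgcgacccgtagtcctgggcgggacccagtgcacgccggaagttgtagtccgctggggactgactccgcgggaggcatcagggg
In Eif2s3x both copies lie after the start site, whereas in Eif2b5 all 4 lie before it. The Eif4g1 window belongs to a start site 4414 bases from the outermost GENCODE start of the gene. Of the other members that changed, the windows of Eif2a and Eif3d hold neither word, and Eif6 has no window in the table.

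Knockdown of Klf4 was accompanied by small changes in a minority of the initiation factors. Of the 48, 7 passed an adjusted p of 0.05 in the edgeR quasi-likelihood fit with batch as a term, 14.6% against 11.7% of all 16333 genes tested. Of the 48, 6 rose (12.5%, background 4.88% of genes) and 1 fell (2.08%, background 6.81%): Eif2b4, Eif6, Eif3d, Eif4g1, Eif2b5 and Eif2a rose, and Eif2s3x fell. Among the 9089 tested genes within the members' own range of levels, 18.7% passed, 8.24% higher and 10.4% lower. The members' share of 14.6% lies between the backgrounds, with the share that rose above both and the share that fell below both. The changes were at most 0.15 on the log2 scale in either direction. All 48 members passed the filter on low counts, and 33 had a positive log2 fold change (68.8%, against 50% of all genes and 52.4% of those in the same range of levels), with a median of 0.042 against 0.000043. The median was 0.027 without Klf4 siRNA replicate 4, 0.025 with that library placed in batch 2 and 0.025 without the batch term. The calls changed with the controls of batch 1. Without scramble replicate 2 no member passed in edgeR, against 6.06% of all genes, and 9 were at an unadjusted p under 0.05 (18.8%, against 18.1% of all genes). Without scramble replicate 1 Eif2b4 alone passed, 2.08% of the members against 5.63% of all genes.

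**Figure D1:**
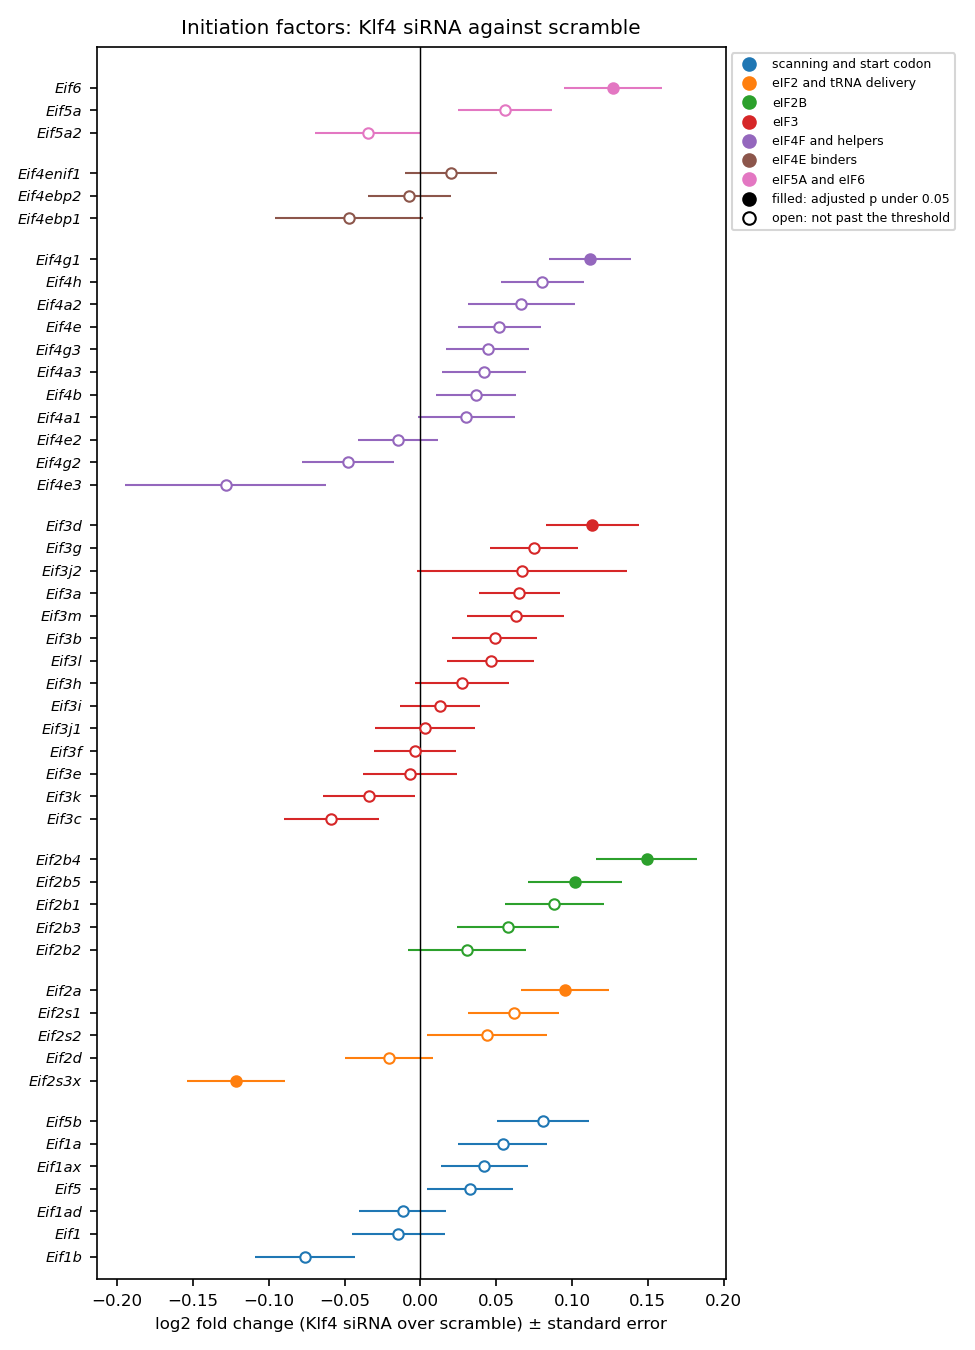
Log2 fold change of each initiation factor between Klf4 siRNA and scramble libraries (x axis, bars are standard errors), grouped by role, with filled points past an adjusted p of 0.05. The 7 filled points lie between -0.12 and 0.15, and all 5 eIF2B subunits lie to the right of 0.

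None of the 7 scanning and start codon factors passed, and their median log2 fold change was 0.033. Eif5b, the GTPase that joins the large subunit, had 0.081 (edgeR adjusted p = 0.098), and Eif1b, a close relative of the fidelity factor Eif1, had -0.076 (edgeR adjusted p = 0.161). Eif1, Eif1ax and Eif1a lay between -0.015 and 0.054.

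Among the 5 factors of eIF2 and tRNA delivery, 1 fell and 1 rose. Eif2s3x encodes the gamma subunit of eIF2, which binds GTP and the initiator tRNA (ENSMUSG00000035150, chromosome X, 94188707 to 94212862 of GRCm38). It had 121.5, 123.5, 122.9 and 125.0 CPM in scramble replicates 1 to 4 and 105.6, 115.1, 114.0 and 116.8 CPM in Klf4 siRNA replicates 1 to 4. All Klf4 siRNA libraries were below all controls, with replicate 1 the lowest. The fitted log2 change came to -0.12 ± 0.03 (SE, edgeR adjusted p = 0.016), and the difference was -0.12 within each batch. It passed in 12 of 18 alternatives, and without Klf4 siRNA replicate 1 or 3 the adjusted p was 0.0505 or 0.087. Its coding sequence shares 1347 bases without a difference with the processed pseudogene Gm2223, whose level was 2.80 ± 0.17 CPM in scramble and 2.31 ± 0.13 CPM (SD, n = 4 each) in Klf4 siRNA libraries. Reads of that stretch cannot be told apart between Eif2s3x and Gm2223.

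The other subunits of eIF2 had positive values that did not pass. Eif2s1, the alpha subunit that stress kinases phosphorylate, reached a log2 value of 0.062 (edgeR adjusted p = 0.221), and Eif2s2, the beta subunit, had 0.044 (0.568). Eif2a, which despite its name is no subunit of eIF2 but an alternative carrier of initiator tRNA (chromosome 3, 58525821 to 58557501), had 65.8, 63.3, 63.97 and 64.4 CPM in scramble replicates 1 to 4 and 68.2, 68.0, 69.8 and 68.5 CPM after Klf4 siRNA. The groups did not overlap, though scramble replicate 1 came close to the lowest knockdown. Its fitted log2 change came to 0.095 ± 0.03 (SE, edgeR adjusted p = 0.037), and it passed in 5 of 18 alternatives, in none of those that left out a scramble library or Klf4 siRNA replicate 1 or 3.

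The eIF2B subunits, which recharge eIF2 with GTP, held 2 of the 6 rises, and the median of the 5 was 0.088. Eif2b4, the delta subunit (ENSMUSG00000029145, chromosome 5, 31187558 to 31193430), had 58.1, 55.4, 55.7 and 56.6 CPM in scramble replicates 1 to 4 and 64.9, 60.5, 61.2 and 65.5 CPM in Klf4 siRNA replicates 1 to 4. Every Klf4 siRNA library was above every control. This was the largest rise of any member, at a fitted log2 change of 0.15 ± 0.03 (SE, edgeR adjusted p = 0.005), a fitted level of 110.9% of scramble, and it passed in 16 of 18 alternatives. Eif2b5, the catalytic epsilon subunit (chromosome 16, 20498817 to 20509323), had 88.7, 92.6, 89.4 and 89.1 CPM in scramble replicates 1 to 4 and 98.8, 102.1, 91.9 and 97.7 CPM after Klf4 siRNA. Here the groups overlapped, as Klf4 siRNA replicate 3, the single knockdown of batch 2, lay under scramble replicate 2. The fitted log2 change came to 0.10 ± 0.03 (SE, edgeR adjusted p = 0.038), with 0.13 within batch 1 and 0.042 within batch 2, and without Klf4 siRNA replicate 1 or 2 the adjusted p was 0.072 or 0.091. Eif2b1 (0.088, edgeR adjusted p = 0.092), Eif2b3 (0.058, 0.317) and Eif2b2 (0.031, 0.712) did not pass.

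**Figure D2:**
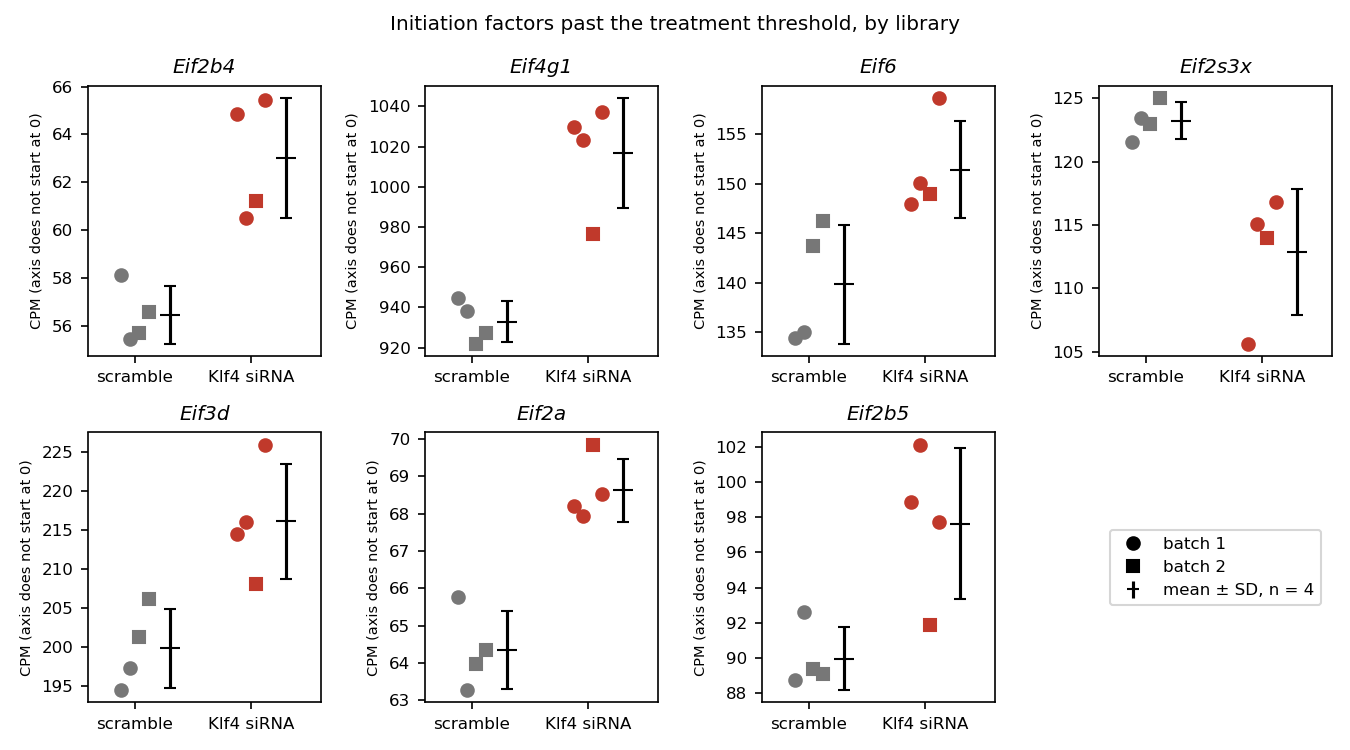
CPM of the 7 initiation factors past the treatment threshold in each library (circles batch 1, squares batch 2), with the mean and SD of 4 libraries per treatment on axes that do not start at 0. Scramble and Klf4 siRNA libraries separate for 6 of the 7, and for Eif2b5 the batch 2 knockdown falls among the controls.

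In eIF3, the large scaffold of the initiation complex, 1 of 14 genes rose and none fell, and the median was 0.037. Eif3d, the subunit known to bind the cap of selected mRNAs (chromosome 15, 77958998 to 77970813), had 194.5, 197.4, 201.4 and 206.2 CPM in scramble replicates 1 to 4 and 214.5, 216.1, 208.1 and 226.0 CPM in Klf4 siRNA replicates 1 to 4. The groups did not overlap, with scramble replicate 4 and Klf4 siRNA replicate 3, both of batch 2, close together. The fitted log2 change came to 0.11 ± 0.03 (SE, edgeR adjusted p = 0.018), with 0.16 within batch 1 and 0.031 within batch 2. The core subunits Eif3a, Eif3b and Eif3c had 0.065, 0.049 and -0.059 (edgeR adjusted p = 0.134, 0.313 and 0.268).

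The cap complex and its helpers held 1 rise among 11 genes. Eif4g1, the scaffold that bridges the cap-binding protein, the helicase and eIF3 (ENSMUSG00000045983, chromosome 16, 20668313 to 20692884), had 944.6, 938.1, 921.9 and 927.1 CPM in scramble replicates 1 to 4 and 1030, 1023, 976.6 and 1037 CPM in Klf4 siRNA replicates 1 to 4. All Klf4 siRNA libraries lay above all controls, and the knockdown of batch 2 was the lowest of the 4. The fitted log2 change came to 0.11 ± 0.03 (SE, edgeR adjusted p = 0.009), a fitted level of 108.1% of scramble. The relatives Eif4g3 and Eif4g2 had 0.044 and -0.048 (edgeR adjusted p = 0.350 and 0.376), and the difference between Eif4g1 and either of them was not tested. Eif4h, which stimulates the helicase, had libraries that did not overlap between treatments but did not pass (0.080, edgeR adjusted p = 0.062). The cap-binding protein Eif4e (0.052), the helicase Eif4a1 (0.030) and its relative Eif4a2 (0.067) did not pass either (edgeR adjusted p = 0.264, 0.636 and 0.264). Eif4e3, at 9.7 to 13.1 CPM the least abundant member per length, had the most negative value, -0.13 ± 0.07 (SE, edgeR adjusted p = 0.250).

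None of the 3 genes grouped as eIF4E binders (the 4E-BPs and a transporter) passed. Eif4ebp1 and Eif4ebp2, the 4E-BP inhibitors, had -0.047 and -0.0072, and Eif4enif1, which carries eIF4E into the nucleus, had 0.020 (edgeR adjusted p = 0.639, 0.918 and 0.759). Eif6, which keeps the large ribosomal subunit from joining too early (chromosome 2, 155819832 to 155826925), had 134.4, 135.1, 143.7 and 146.2 CPM in scramble replicates 1 to 4 and 147.9, 150.1, 149.0 and 158.6 CPM after Klf4 siRNA. The groups did not overlap, but the batch 2 controls came close to the lowest knockdown. The fitted log2 change came to 0.13 ± 0.03 (SE, edgeR adjusted p = 0.012), with 0.18 within batch 1 and 0.040 within batch 2. Eif5a, best known in elongation and termination, had 0.056 (edgeR adjusted p = 0.298), and its relative Eif5a2 had -0.034 (0.620).

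Scramble and Klf4 siRNA libraries did not overlap for 8 of the 48 members, which is 16.7% against 10.5% of all tested genes and 15.7% of those in the members' range of levels. Of these, 7 were higher (background 4.97%) and 1 was lower (5.55%). The 8 were Eif2a, Eif2b1, Eif2b4, Eif2s3x, Eif3d, Eif4g1, Eif4h and Eif6. The interaction of batch and treatment passed for 0 members in edgeR, DESeq2 and limma-voom (0% of all genes in edgeR), with 2 members, Eif3d and Eif6, at an unadjusted p under 0.05 in edgeR, as were 540 of all 16333 genes. Batch 2 has a single knockdown library. Without Klf4 siRNA replicate 1, 4 members passed (8.33%, against 8.9% of all genes), all higher, and Eif2s3x had an edgeR adjusted p of 0.0505 at a log2 fold change of -0.095. Without the batch term 0 passed in edgeR, against 2.5% of all genes, and 11 were at an unadjusted p under 0.05 (22.9%, against 14.9% of all genes).

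Differences between the batches were measured in the same fit. Of the 48, 10 differed between batches, 8 higher and 2 lower in batch 2, or 20.8% against 32.7% of all tested genes (16.8% higher and 15.9% lower). Among tested genes in the members' range of levels 39.3% differed. With library size as the scaling in place of TMM the members divided otherwise, 5 higher and 6 lower, as did all genes, with 2111 higher and 3316 lower in place of 2747 and 2596, and the median of all genes moved from 0.00065 to -0.037. The 7 of the 10 that passed there too had the same direction. With Klf4 siRNA replicate 4 placed in batch 2, 7 members passed, or 14.6% against 17.6% of all genes. Only 4 of these were among the 10 (Eif1, Eif2b3, Eif4a3 and Eif4ebp1), and Eif2s2, Eif3c and Eif5a were new. The libraries of the batches did not overlap for 9 members, 6 higher and 3 lower, or 18.8% against 29.4% of all tested genes (15.8% higher and 13.6% lower). In the members' range of levels the share was 32.7%. Without Klf4 siRNA replicate 3, 6 members differed between batches, or 12.5% against 23.2%. What the batch numbers stand for (culture, preparation or sequencing) is not given in the sources used here.

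The largest rise in batch 2 among the members that passed was that of Eif4ebp1, the mTORC1-controlled inhibitor of cap binding. It had 96.9, 90.7, 88.5, 90.01 and 101.4 CPM in the batch 1 libraries (scramble replicates 1 and 2, Klf4 siRNA replicates 1, 2 and 4) and 105.4, 114.1 and 101.3 CPM in those of batch 2 (scramble replicates 3 and 4, Klf4 siRNA replicate 3). The batches overlapped narrowly, at Klf4 siRNA replicates 3 and 4. The log2 difference was 0.18 ± 0.05 (SE, edgeR adjusted p = 0.015). Without scramble replicate 2 the adjusted p was 0.052. Eif5a2 was next among those that passed, with 50.1, 51.4, 46.9, 49.1 and 48.8 CPM in batch 1 and 56.8, 53.0 and 56.1 CPM in batch 2, given in the same order. The batches did not overlap (log2 difference 0.16 ± 0.04 SE, edgeR adjusted p = 0.0019), and the adjusted p was 0.100 for a log2 difference of 0.11 when Klf4 siRNA replicate 3 was left out.

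Eif4a3, the helicase of the exon junction complex, had 146.5, 149.8, 149.8, 155.3 and 159.0 CPM in batch 1 and 167.95, 166.5 and 167.8 CPM in batch 2. The 3 libraries of batch 2 lay close together and above all of batch 1 (log2 difference 0.15 ± 0.03 SE, edgeR adjusted p = 0.00036). Eif1, which guards the choice of start codon, had 359.4, 350.0, 347.5, 355.6 and 372.2 CPM in batch 1 and 396.1, 407.4 and 383.2 CPM in batch 2. Its batches did not overlap either (log2 difference 0.14 ± 0.03 SE, edgeR adjusted p = 0.0013). Eif4e2, Eif4g3, Eif3k and Eif1ax were also higher in batch 2, by 0.12, 0.11, 0.087 and 0.078 (edgeR adjusted p = 0.0016, 0.0035, 0.037 and 0.0496). Of 15 alternatives, Eif4e2 passed in 14, Eif4g3 in 12, Eif3k in 5 and Eif1ax in 3. With Klf4 siRNA replicate 4 placed in batch 2 the adjusted p was 0.098 for Eif4e2 and 0.112 for Eif4g3. With library size as the scaling Eif4g3, Eif3k and Eif1ax were at 0.075, 0.049 and 0.040 and did not pass (edgeR adjusted p = 0.052, 0.280 and 0.393).

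Eif2b3 and Eif3a were the members lower in batch 2. Eif2b3, the gamma subunit of eIF2B (chromosome 4, 117019402 to 117087306), had 40.7, 41.6, 42.1, 43.7 and 42.2 CPM in batch 1 and 35.9, 36.8 and 38.1 CPM in batch 2 (log2 difference -0.17 ± 0.03 SE, edgeR adjusted p = 0.0006). The batches were set apart by more than the spread within either. Eif3a, the largest eIF3 subunit (chromosome 19, 60761117 to 60790658), had 727.8, 704.6, 754.6, 747.6 and 756.9 CPM in batch 1 and 640.8, 659.9 and 674.2 CPM in batch 2. All 3 libraries of batch 2 lay below all of batch 1 (log2 difference -0.15 ± 0.03 SE, edgeR adjusted p = 0.00031). With Klf4 siRNA replicate 4 placed in batch 2 the adjusted p was 0.076. The 547 tested genes of chromosome 19 had a median batch difference of -0.12, against 0.00065 for all tested genes, and the part of this in the value of Eif3a was not tested. Eif1ad, the other member on chromosome 19, had -0.060 and did not pass (edgeR adjusted p = 0.132).

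**Figure D3:**
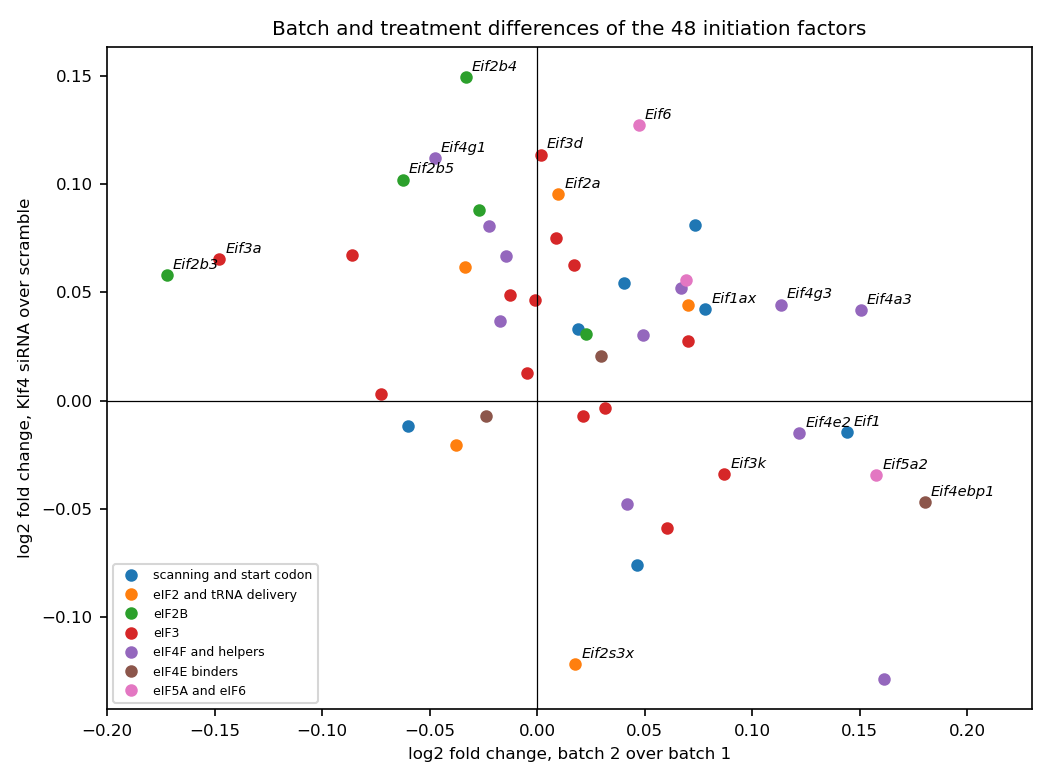
Log2 fold change between batches (x axis) against that between treatments (y axis) for the 48 initiation factors, coloured by role and named where either passed an adjusted p of 0.05. On the x axis the 7 members that changed with treatment lie between -0.063 and 0.047, and the 10 that differed between batches lie from -0.17 to 0.18.

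Levels were compared between genes as CPM per kilobase of exon (the union of a gene's annotated exons), over all 8 libraries. Eif5a was highest at 202.3 ± 7.91, followed by Eif1 at 177.0 ± 10.6, Eif3c at 162.9 ± 7.29, Eif4g2 at 145.8 ± 5.0, Eif3b at 145.4 ± 3.91, Eif4g1 at 133.5 ± 6.67 and Eif3h at 132.5 ± 5.07 (SD, n = 8). Eif4g2, which encodes a scaffold without the part that binds the cap-binding protein, could not be told from Eif3b, nor Eif4g1 from Eif3h, by their spread. In this unit a clear step followed to Eif3g at 95.6 ± 3.43. At the bottom were Eif2b3 at 6.16 ± 0.43, Eif3j2 at 5.17 ± 0.41 and Eif4e3 at 4.52 ± 0.47. Of 47 neighbouring pairs in this order, 39 had ranges that overlapped. Exon unions count every annotated isoform, and with the longest transcript instead the median of the 48 moved from 35.2 to 46.6, Eif5a and Eif1 stayed the highest, and Eif3g passed Eif3c as the highest eIF3 gene (172.2 against 169.1). With that length Eif4g1 was at 172.9, Eif3b at 165.2 and Eif3h at 165.0, so the step before Eif3g was gone.

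The subunits of a complex were not at 1 level. In eIF3, levels per kilobase ran from 162.9 for Eif3c through 40.6 for Eif3i to 16.6 for Eif3e and 5.17 for Eif3j2. In eIF2 the subunits were at 30.1 ± 1.16 for Eif2s1, 34.4 ± 1.74 for Eif2s2 and 31.0 ± 1.70 for Eif2s3x (SD, n = 8). The range of Eif2s3x over the libraries overlapped both others, while all values of Eif2s1 lay below those of Eif2s2. With the longest transcript as length they were further apart, at 43.8 ± 1.69 for Eif2s1, 56.6 ± 2.87 for Eif2s2 and 32.4 ± 1.78 for Eif2s3x. In eIF2B, Eif2b5 at 36.1 ± 1.97 was highest, Eif2b4, Eif2b1 and Eif2b2 lay at 22.98, 21.01 and 20.4, and Eif2b3 was at 6.16. By the longest transcript Eif2b5 was still the highest of the 5 (36.7) and Eif2b3 the lowest (10.7), while Eif3i was at 64.8 and Eif3e at 27.0.

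**Figure D4:**
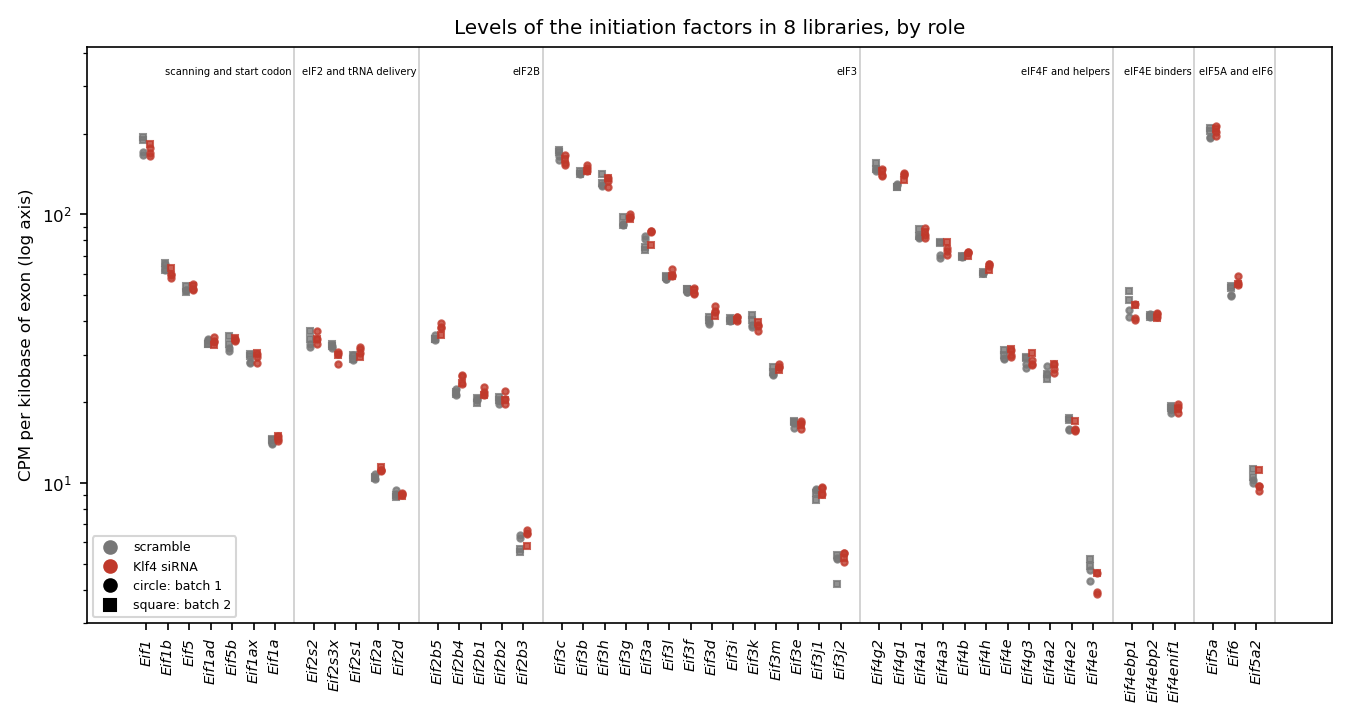
CPM per kilobase of exon on a log axis for the 48 initiation factors in each of 8 libraries, grouped by role and ordered by level (grey scramble, red Klf4 siRNA, circles batch 1, squares batch 2). Levels run from 4.52 for Eif4e3 to 202.3 for Eif5a on average. The spread between libraries is small beside this whole range, while 39 of 47 pairs of neighbouring genes overlap.

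Related genes were compared in the same unit. Per kilobase of exon union, Eif5a was 19.8 ± 1.34 times Eif5a2, Eif4e was 6.73 ± 0.73 times Eif4e3 and 1.85 ± 0.08 times Eif4e2, and Eif4g1 was 4.71 ± 0.33 times Eif4g3 (SD, n = 8). Eif4a1 was 3.22 ± 0.21 times Eif4a2, its relative in the cap complex, and 1.14 ± 0.05 times Eif4a3. Eif1 was 2.86 ± 0.14 times Eif1b, Eif1a was 0.50 ± 0.0096 of Eif1ax and Eif4ebp1 was 1.07 ± 0.10 times Eif4ebp2. By the longest transcript Eif4e and Eif4e2 were at nearly the same level, 36.3 and 35.2, and Eif5a and Eif5a2 were further apart, at 334.7 and 10.3. Within these pairs the coding sequences were 54.4% (Eif4e and Eif4e3) to 85.6% (Eif1a and Eif1ax) identical, and the longest identical run was 28 bases. Eif3j1 and Eif3j2 are the exception, with 99.7% identity over 783 aligned bases and 781 bases in 1 run. Their separate levels, 9.25 ± 0.33 and 5.17 ± 0.41 (SD, n = 8), are uncertain because reads of that stretch cannot be told apart. The same holds for Eif4a1 and the pseudogene Eif4a-ps4 (99.9% identical over 1218 bases), which was listed at 8.68 CPM.

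Because translation is also set by kinases, repressors and later steps, 58 other genes of the pathway in 4 lists were read from the same fit. All 58 were tested and 8 passed, 3 higher and 5 lower, with a median log2 fold change of 0.011. The share was 13.8%, against 11.7% of all genes and 18.7% of those in the initiation factors' range of levels. Of 12 genes for eIF2 kinases and the stress response, 1 rose and 1 fell: Eif2ak3, the kinase PERK, had 0.11 (edgeR adjusted p = 0.029) and Atf5, a stress-induced transcription factor, had -0.12 (0.0086). Of 14 elongation and termination factors 2 rose, the release factor Gspt1 (0.11, edgeR adjusted p = 0.0075) and Eef1g, a subunit of the exchange factor of elongation (0.092, 0.044). Of 15 genes of mTORC1 and MNK control 3 fell and none rose, and of 17 poly(A) binding and helper genes 1 fell. Of 18 alternatives, Eif2ak3 and Eef1g passed in 7, Atf5 in 13 and Gspt1 in 16. The value of Eif2ak3 was 0.062 with a replicate block (edgeR adjusted p = 0.617), and that of Atf5 was -0.093 (0.056). Among these genes the libraries of the treatments separated for Gspt1 and overlapped for Eif2ak3, Eef1g and Atf5.

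Pdcd4 and Bzw2 stood out in these lists by the size of their fall. Pdcd4, an inhibitor that binds the helicase eIF4A, had 135.2, 125.7, 143.3 and 144.0 CPM in scramble replicates 1 to 4 and 95.7, 96.0, 116.0 and 103.3 CPM in Klf4 siRNA replicates 1 to 4. No knockdown library reached a control, and the fitted log2 change came to -0.37 ± 0.03 (SE, edgeR adjusted p = 2.6e-07). Bzw2, an eIF5 mimic that competes for eIF2, had 145.2, 143.1, 148.1 and 152.1 CPM against 101.0, 113.3, 122.1 and 116.1 CPM. Its groups did not overlap either, at a fitted log2 change of -0.36 ± 0.04 (SE, edgeR adjusted p = 1.2e-05). Both passed in 18 of 18 alternatives. Larp1, a repressor of mRNAs with a pyrimidine-rich start, and Mknk2, a kinase of eIF4E, had -0.11 and -0.10 (edgeR adjusted p = 0.0071 and 0.018), and without Klf4 siRNA replicate 3 the adjusted p of Larp1 was 0.072. Of the 58, 8 passed with all libraries kept, when 11.7% of all genes did. Without scramble replicate 1, 2 passed (5.63% of all genes), without scramble replicate 3, 5 (10.2%), and without Klf4 siRNA replicate 3, 3 (7.44%).

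**Figure D5:**
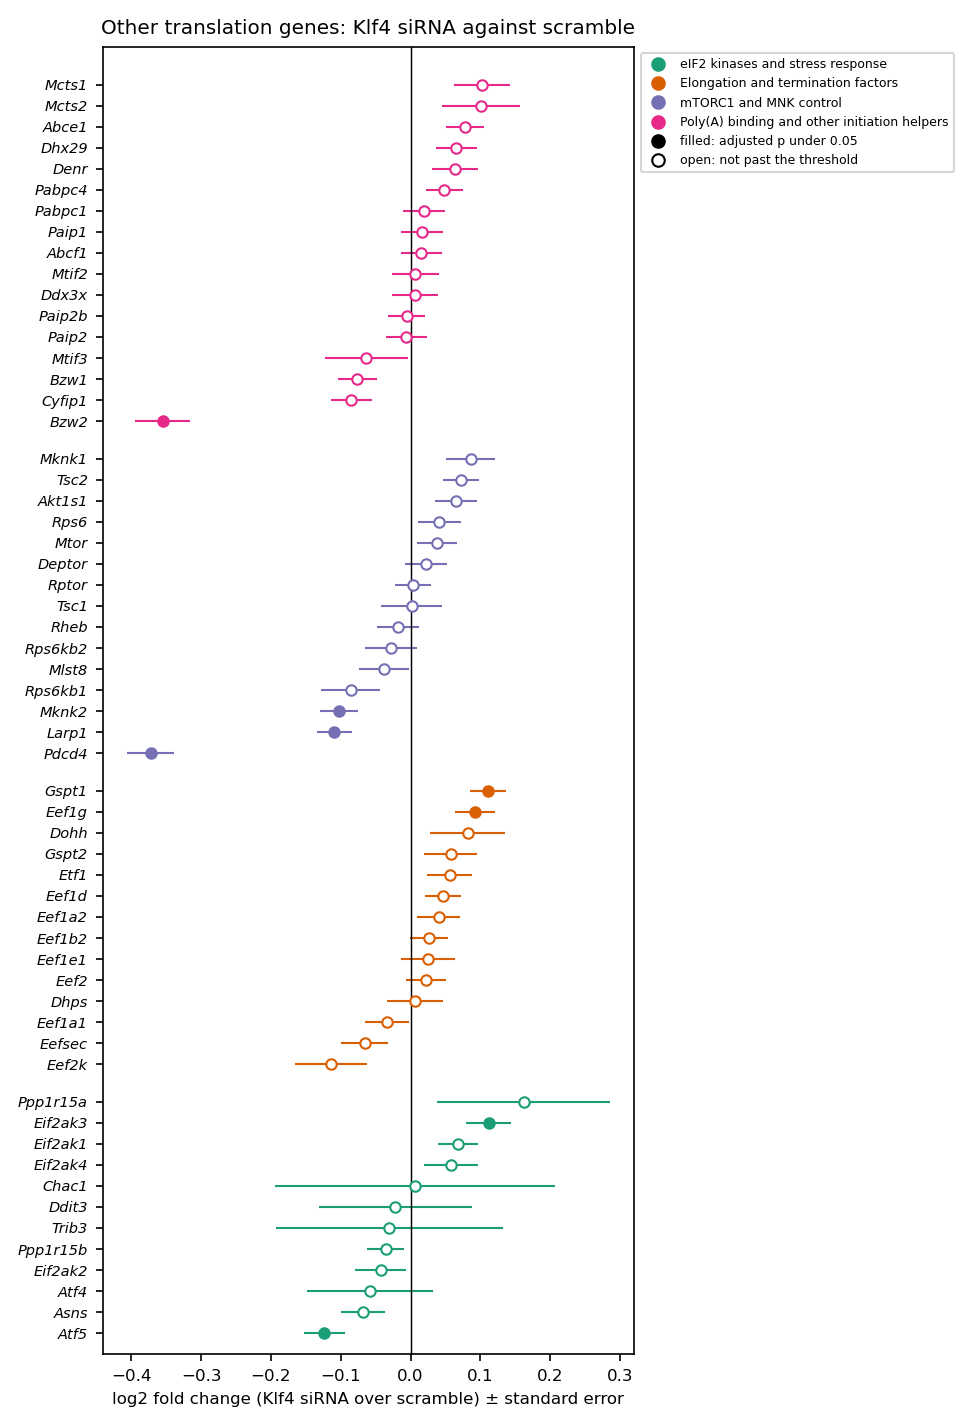
Log2 fold change between Klf4 siRNA and scramble libraries (x axis, bars are standard errors) of the 58 other translation genes in 4 lists, with filled points past an adjusted p of 0.05. Pdcd4 and Bzw2 lie at -0.37 and -0.36, and the other 6 filled points lie between -0.12 and 0.11.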

How the data were processed

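Poly(A) RNA of 8 alphaTC6 libraries was sequenced, and the authors deposited whole-number counts per gene, not normalized. The submitters' processing notes name FastQC, STAR, featureCounts, DESeq2 and build mm10, with no versions. The strand setting, treatment of reads with several matches and annotation release are not given in the sources used here. All 55536 identifiers and symbols matched GENCODE M21 (GRCm38), and 0 columns were unmapped. The use of strand being unknown, reads of overlapping genes could be shared: among the changed members, Eif2b4, Eif2a, Eif3d and Eif6 overlap genes on the opposite strand (Snx17, Serp1, Gm17638 and Gm16098).

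Genes were kept with filterByExpr, scaled with TMM and tested in edgeR 4.0.16 (R 4.3.3) by its quasi-likelihood test (robust option, terms for batch and treatment), after the design text. P-values are two-sided and Benjamini-Hochberg adjusted over 16333 genes. A standard error is the size of the log2 change divided by the square root of F. CPM use TMM-scaled library sizes, and changes within a batch are differences of mean log2 CPM (prior count 2). The gene test was also run on counts drawn from its own fitted model with the same batch labels. Such a run cannot show a wrong label or a dependence on single libraries, and no conclusion is drawn from it. No use of molecular identifiers is named, so counts may include PCR duplicates, and errors come from differences among the libraries.

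Members and lists were chosen with earlier results of these data known. Named were the members past the treatment threshold, the highest of each role per length, the 4 largest batch differences each way, paralogues, those beside the 1 CPM limit, and at most 2 genes per other list. Other members, and Mknk2, were named after their values were seen. Coding sequence identity, from GENCODE transcripts, replaced the planned protein identity. Some alpha cell markers of the list are not reported here by name.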

Additional observations from a re-analysis of the deposited data

Results flagged for a closer look

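For the 29 named members, the CPM of the 4 libraries of each treatment were examined for a library far from the rest, by dividing its distance from the closest one by the whole range. Of 58 such groups, 3 passed Dixon's limit, which chance passes in about 5% of groups. Eif3a was lowest in Klf4 siRNA replicate 3, the single knockdown of batch 2, at 674.2 CPM with the next at 747.6 CPM (ratio 0.887), and both controls of batch 2 were likewise below those of batch 1. Eif3j2 was lowest in scramble replicate 3, at 10.03 CPM with the next at 12.4 CPM (0.866). Eif2b5 was highest in scramble replicate 2, at 92.6 CPM with the next at 89.4 CPM (0.835).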

How the results depend on the processing

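The number of members called with treatment, 7, was 6 with Klf4 siRNA replicate 4 placed in batch 2 (12.5%, against 8.14% of all genes). It was 6 in batch 1 alone (12.5% against 7.44%, 5 of the 7, with Eif5b) and 5 with library size alone (10.4% against 8.91%). It was 7 with DESeq2 size factors (14.6% against 11.7%) and 7 in the DESeq2 Wald test (14.6% against 11.2%, 6 of the 7, with Eif4h). It was 8 with limma-voom (16.7% against 11.4%) and 6 without a filter (12.5% against 6.27%). At a mean of at least 5 CPM it was 8, a share of 16.7%, under the 19.4% of all genes. Without the batch term it was 0, against 2.5%. Leaving out a library gave 0 to 9 calls, 0 to 18.8% of members against 5.63% to 12.1% of all genes. The count over all genes, 1909, was 409 without the batch term, 1232 in batch 1 alone, and 934 to 2021 with a library left out. That of the 58 other translation genes, 8, was 3, 5 and 4 without the batch term, with replicate 4 moved and in batch 1 alone. In these runs 2.5%, 8.14% and 7.44% of all genes passed. With a library left out it was 2 to 11, where 5.63% to 12.1% of all genes passed. Between batches, 10 members were 6 to 15 with a library left out, or 12.5% to 31.2% against 23.2% to 37.2% of all genes. The 5343 genes were 2882 with replicate 4 moved and 3843 to 6210 with a library left out. Klf4 had a log2 fold change of -1.39 in batch 1 alone (edgeR adjusted p = 0.104) and -1.46 to -1.24 with a library left out (0.052 at -1.27 without scramble replicate 1). The median level per kilobase was 46.6 with the longest transcript. No direction of a called member reversed in any alternative run; the causes of the moved counts were not tested.

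Replicate numbers are shared by the treatments. Once group means were removed, libraries of equal number had correlations of 0.49, 0.42, 0.72 and -0.34, and of -0.00053, -0.040, -0.30 and 0.12 once batch was removed too. The libraries numbered 1, 2 and 3 share a batch across treatments and those numbered 4 do not. Removing group and batch means from so few libraries itself shifts these correlations. They therefore cannot decide whether the numbers pair the samples, and no pairing was used in the main fit. Under a replicate block without batch, 1220 genes (7.47%) and 6 of the members (12.5%) passed, and the members' median was 0.025. Changes near 0.1 on the log2 scale are close to what 4 libraries a treatment can resolve, with standard errors of about 0.03 for most members.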
